A study of Mus musculus with 6 samples.

Results

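Genes of nucleolar ribosome biogenesis and of RNA polymerase I were lower in cultures labelled ERK1/2 null than in cultures labelled wild type. The cells are aortic endothelial cells by label, and most defining endothelial markers were dim on these arrays. The gene set was written as 50 mouse genes. A gene was kept where the platform annotation gave at least 1 row of the expression table to that gene alone, and the row with the highest mean stood for it. This left 41 of the 50 genes, out of 14860 genes measured on the arrays. The 9 others (Polr1c, Rrn3, Fbl, Dkc1, Wdr43, Utp18, Wdr75, Npm1 and Ddx18) were not analysed here. The 41 were grouped by role as 6 factors of RNA polymerase I transcription, 6 proteins of small nucleolar ribonucleoproteins (snoRNPs), 15 small subunit factors and 14 large subunit factors.

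The series holds 6 Affymetrix expression arrays of total RNA, 3 per group. The cells came from aortas of mice aged 4 weeks, of strain C57/BL6 (5 generations), and were grown in medium with 20% serum, heparin and endothelial growth supplement. Both groups carry the genotype Erk1-/-; Erk2fl/fl by label, so the controls also lack Erk1. The null cultures received a lentivirus encoding Cre recombinase (named egfp-Cre in every source label, but egfp-Cre for replicate 1 and Cre for replicates 2 and 3 in the genotype label), and the cultures titled wild type received a lentivirus encoding GFP. Read by genotype, the groups therefore differ in Cre and in the Cre-dependent loss of Erk2. ERK1 and ERK2 are the kinases that carry growth factor signals to the nucleus. The labels do not name the promoter that drives Cre, nor say whether the replicates came from separate animals, so p-values measure the spread between these arrays. Rows of the targeted kinase genes were not analysed here, and the labels could not be checked by them.

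The array medians ranged from 6.09 to 6.27 on the log2 scale. Arrays of the same group correlated at 0.975 to 0.986 across rows, and the second principal component (26.0% of the variance) set replicate 1 of both groups apart from replicates 2 and 3. Of 18 endothelial markers, 13 lay in the dimmest 33.3% of genes, among them Pecam1 (3.97 in null and 3.77 in wild type, group means on the log2 scale), Cdh5 (3.48 and 3.89), Kdr (2.94 and 3.36) and Vwf (4.11 and 4.01). Eng, the TGF-beta co-receptor endoglin, was bright (9.73 and 9.28). Flt1 (7.6 and 6.8), Egfl7 (5.79 and 6.04), Erg (5.61 and 4.63) and Sox18 (5.01 and 4.73) also lay outside the dimmest 33.3%. None of the 18 was called between the groups by limma (2 at an unadjusted p under 0.05). The endothelial identity therefore rests on the label. The fibroblast markers Col1a1 and Col1a2 stood at 11.5 and 11.4 in wild type, and the smooth muscle marker Acta2 at 11.4. Of the smooth muscle list, Pdgfrb, Tagln and Smtn were also bright in wild type (9.9, 9.3 and 9.2). Lmod1, Cnn1, Myocd, Mylk, Actg2, Myh11 and Des were dimmer (5.0, 4.4, 4.4, 4.2, 4.2, 4.0 and 2.9). In the dimmest 33.3% of genes lay 1 of 11 fibroblast and 3 of 11 smooth muscle markers. Of 11 fibroblast markers 3 rose and none fell (Col3a1, Col1a2 and Mfap5, by 2.17, 0.82 and 2.89), where 5.35% of all genes rose and 6.12% fell. The summed linear level of this list ran from 8069 to 12075 in wild type and from 14111 to 32216 in null arrays. Of 11 smooth muscle markers 1 rose (Mylk, by 1.37), a count near the share of all genes that rose. The sums of the smooth muscle list were 3921 to 6400 in wild type and 8224 to 12931 in null arrays. Linear sums weigh the brightest genes most and do not show that a whole list rose. In the smooth muscle list these were Acta2, Pdgfrb and Tagln, none called without the block (limma adjusted p = 0.085, 0.079 and 0.45). In the fibroblast list they included Col1a1, Col1a2 and, in null arrays, Dcn. Col3a1 was called in every fit without 1 array, while the limma adjusted p of Col1a2, Mfap5 and Mylk reached 0.11, 0.15 and 0.060 (null replicates 3, 2 and 3 omitted). Col1a2, Mfap5 and Mylk were called in 1, 2 and 4 of the 6 such fits. With the replicate number as a block, 8 fibroblast, 5 smooth muscle, 2 endothelial and 1 macrophage marker rose, where 8.92% of all genes rose. Col1a1 and Acta2 differed by 1.06 and 1.18 and rose only with the block (limma adjusted p = 0.059 and 0.085, blocked 0.015 and 0.028). The part of the cell type markers in the results below was not tested. No macrophage marker (7 measured) was called by limma without the block (0 at an unadjusted p under 0.05).

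Ribosomes are assembled in the nucleolus. RNA polymerase I transcribes a long precursor of ribosomal RNA, snoRNPs guide the chemical modification of that RNA, and large sets of processing factors fold and cut it into the small and the large subunit. Cells that grow and divide make many ribosomes, and growth factor signalling through ERK and the transcription factor MYC are known to raise the activity of this pathway.

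Every one of the 41 genes was lower in the null cultures, with log2 differences from −0.28 to −1.46 and a median of −0.79, a 1.73-fold lower level. The median over all 14860 genes was 0.02. With limma (moderated linear models, Benjamini-Hochberg adjusted over all genes, 2-sided) 32 of the 41 fell and none rose at an adjusted p under 0.05, where 6.12% of all genes fell and 5.35% rose. In all 41 genes each null array lay below each wild type array, a pattern that 14.6% of all genes showed. At least 2-fold lower were 7 of the 41 genes, against 3.70% of all genes. Over the 41 genes the median level was 7.85, 7.84 and 7.91 on null arrays 1 to 3. It was 8.63, 8.66 and 8.50 on the wild type arrays, so the groups did not overlap. Among all genes, 5.39% had a difference at or below the median of the 41. In this bulk RNA, fewer cells of a type and less RNA per cell cannot be told apart.

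**Figure D1:**
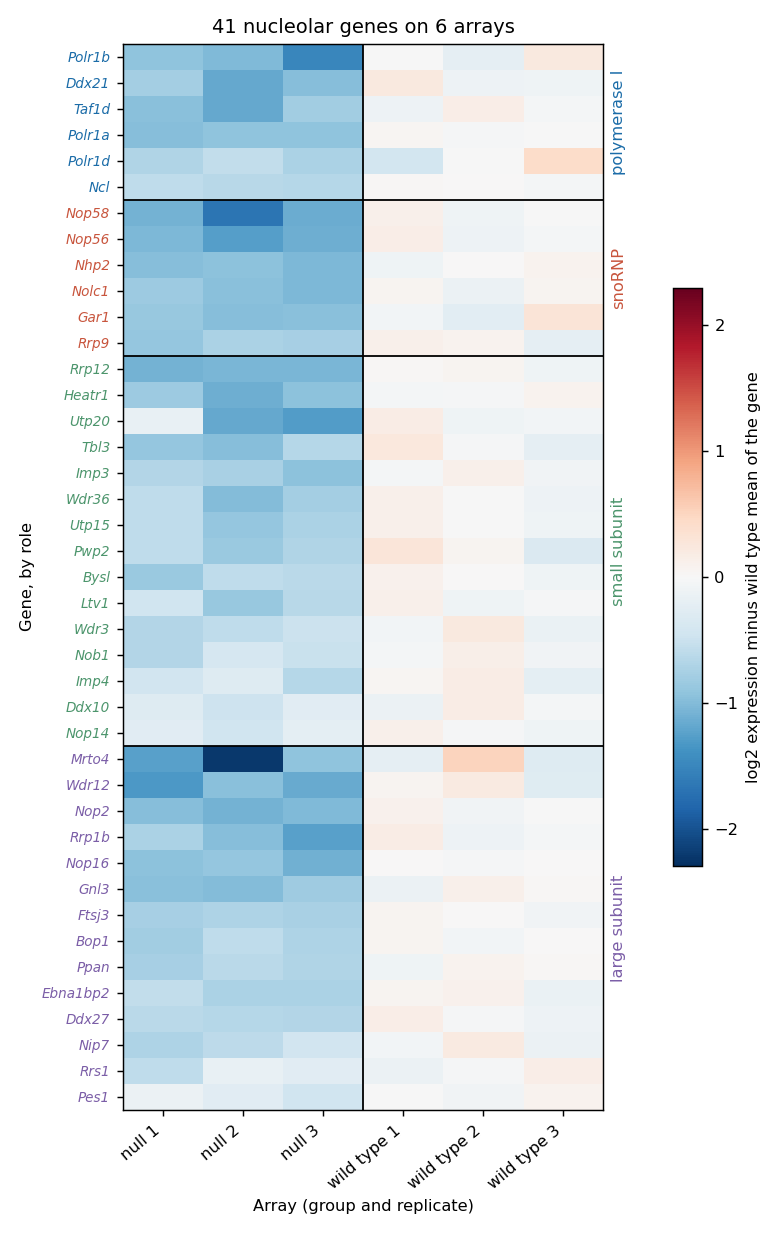
Heat map of 41 genes (rows, grouped by role) on 6 arrays (columns). Colour gives the log2 RMA value minus the wild type mean of that gene. The 3 null columns are below the wild type mean in every row, most weakly for Pes1, Rrs1, Nop14 and Ddx10, and Utp20 stands out by its high value on null replicate 1.

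The arrays carry the same replicate numbers in both groups, and across all genes arrays of equal number deviated together. Over the 41 genes alone they did not do so for each number (r = 0.31, −0.22 and −0.32 for numbers 1, 2 and 3). With the number as a block, 34 of the 41 genes fell (7.76% of all genes), of which 31 also fell without the block. Utp20, Pwp2 and Imp4 were gained and Nip7 was lost. The 41 genes were lower in null within all 3 pairs of equal number, as were 23.3% of all genes. For the 41 this follows from the separation of the groups given above and adds nothing to it. The median difference of the 41 within pairs 1, 2 and 3 was −0.82, −0.84 and −0.71. The count of 32 was lower with an array omitted, by an amount that depended on which array it was, and the share of all genes called lower was then also smaller. It was 15 without null replicate 2 (3.09% of all genes), 19 without null replicate 3 (3.69%) and 21 without wild type replicate 2 (3.69%). It was 28 without null replicate 1 (4.20%), 26 without wild type replicate 1 (4.89%), 26 without wild type replicate 3 (3.90%) and 17 without replicate 1 of both groups (3.74%). The median difference stayed between −0.74 and −0.84 with any 1 array omitted. After quantile normalization 34 were called (7.13% of all genes), as after subtraction of array medians (7.73%) and with the dimmest genes left out (10.1% of 9906 genes). With array weights 33 were called (6.36%). The count was 32 with an intensity trend (5.98%), with the mean of a gene's rows (6.11%) and with its dimmest row (6.06%), and 12 at an adjusted p under 0.01 (2.44%). In every fit without 1 array, 15 genes were called, namely Polr1a, Taf1d, Nop56, Nop58, Nhp2, Nolc1, Rrp12, Heatr1, Wdr12, Nop2, Nop16, Gnl3, Ftsj3, Bop1 and Ppan. The share of all genes called lower in every such fit was not counted, and cannot exceed the 3.09% called lower without null replicate 2.

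**Figure D2:**
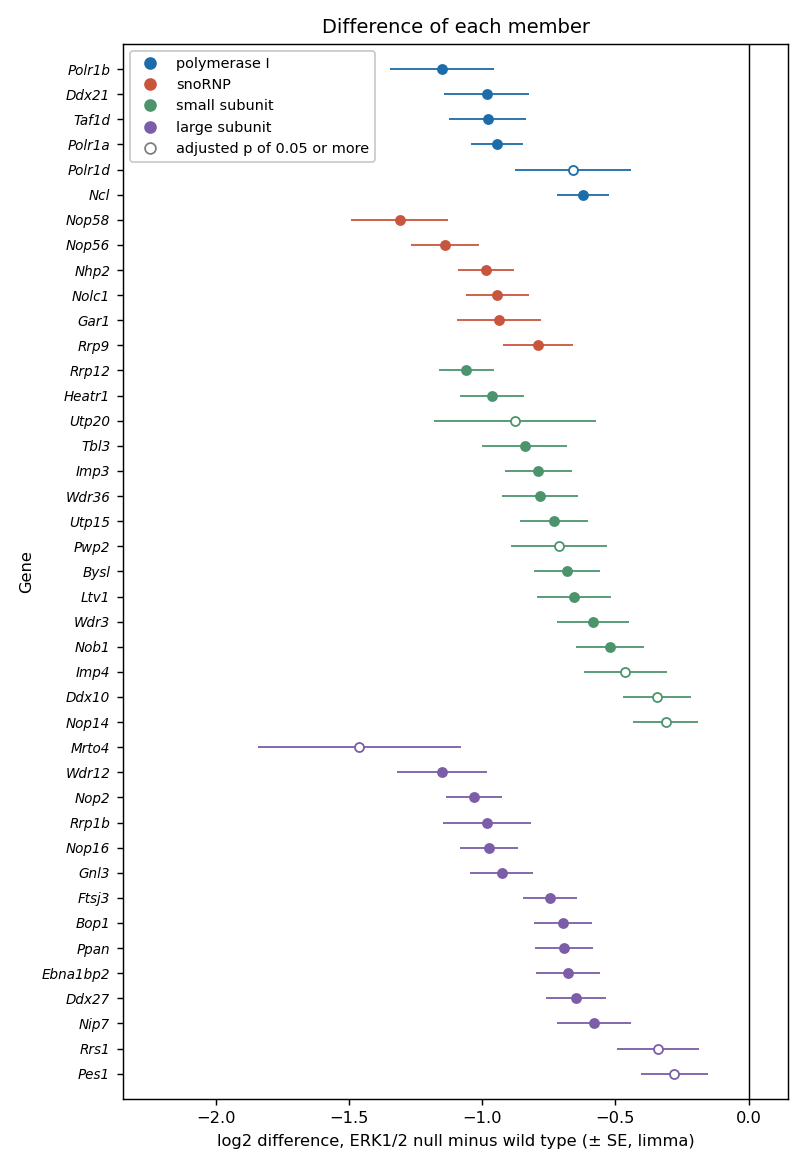
Log2 difference (null minus wild type) of each of the 41 genes with its SE from limma, coloured by role. Filled points have an adjusted p under 0.05. All points lie left of 0, from −0.28 (Pes1) to −1.46 (Mrto4), and 9 are open.

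Promoter sequences of the 41 genes were compared, whether a gene was called or not. RefSeq windows of mouse build GRCm38.p6, from 250 bases before to 50 bases after an annotated start, were held for 36 of the 41 genes. The motif GGAAGTG or its reverse complement CACTTCC, an ETS factor core, occurred in 12 of these 36 genes (33.3%), against 13.9% of 11894 measured genes and 12.5% of all 27025 genes with a window. By window, these were 30.8%, 11.9% and 11.0%. The motif occurred in 35.7% of 70 genes of the other ribosome biogenesis lists described below. Among 15 genes of the MCM helicase and origin licensing it occurred in 20.0%. Of the 12 genes with the motif, Imp4, Nop14 and Pwp2 were not called and the others were called lower. The log2 differences of the 12 ran from −0.31 (Nop14) to −1.15 (Wdr12). The median GC content of the windows was 58.3% both for these 36 genes and for the measured genes. In 8 genes the motif began within 50 bases before the start, and their sequences from 60 bases before to 6 bases after the start are printed because they carry this shared feature close to the start. Capitals mark GGAAGTG or CACTTCC, searched on both strands, and all sequences read 5′ to 3′ on the strand of the gene.
Ddx21 (chr10:62602293-62602358, minus strand): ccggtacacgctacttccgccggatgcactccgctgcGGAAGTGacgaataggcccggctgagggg
Ebna1bp2 (chr4:118620739-118620804, plus strand): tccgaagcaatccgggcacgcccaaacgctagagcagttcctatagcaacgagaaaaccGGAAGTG
Gar1 (chr3:129831391-129831456, minus strand): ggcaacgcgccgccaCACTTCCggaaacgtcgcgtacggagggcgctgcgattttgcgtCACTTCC
Nhp2 (chr11:51619713-51619778, plus strand): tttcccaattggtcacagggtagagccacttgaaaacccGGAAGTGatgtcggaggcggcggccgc
Nip7 (chr8:107056817-107056882, plus strand): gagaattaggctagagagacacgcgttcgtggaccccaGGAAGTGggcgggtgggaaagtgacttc
Ppan (chr9:20888115-20888180, plus strand): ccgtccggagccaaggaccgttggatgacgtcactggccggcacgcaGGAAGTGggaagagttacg
Pwp2 (chr10:78185144-78185209, minus strand): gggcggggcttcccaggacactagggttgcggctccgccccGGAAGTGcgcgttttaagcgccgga
Wdr3 (chr3:100162402-100162467, minus strand): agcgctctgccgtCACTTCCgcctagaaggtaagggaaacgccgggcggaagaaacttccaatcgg

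The palindrome CACGTG, the E-box core that MYC binds, occurred in 5 of the 36 genes (13.9%), against 10.1% of the measured genes. These were Nop2, Imp4, Ltv1, Pes1 and Utp20. The palindrome was more frequent in the 70 other ribosome biogenesis genes (21.4%), and occurred in 13.3% of the 15 licensing genes. In Nop2, an rRNA methyltransferase gene, it began 60 bases before the start and is shown in capitals in the same stretch of the promoter.
Nop2 (chr6:125131823-125131888, plus strand): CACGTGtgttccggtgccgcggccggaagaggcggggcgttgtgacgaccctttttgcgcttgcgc
The 5 genes with CACGTG had a median log2 difference of −0.66 (2 called lower) and the 31 without it −0.79 (26 called lower). TATAAA, on either strand, occurred in 2 of the 36 genes (5.56%) against 13.2% of the measured genes. None of the 3 motifs contains another. These are matches of letters in a window, given as descriptions without a test.

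**Figure D3:**
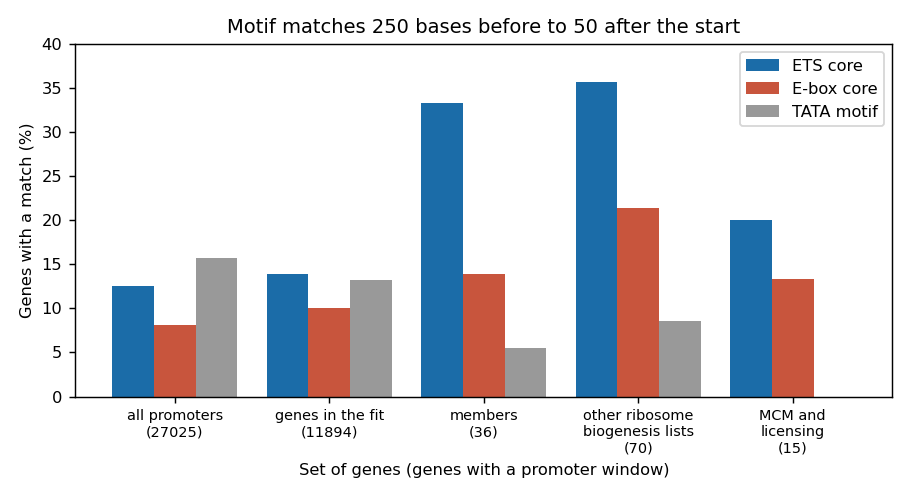
Share of genes (%) with a match to the ETS core GGAAGTG, the E-box core CACGTG or TATAAA in the promoter window, by gene set, with the number of genes in brackets. The ETS core is found in 33.3% of the members and 35.7% of other ribosome biogenesis genes, against 13.9% of the genes in the fit.

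Of the 6 factors of RNA polymerase I transcription, 5 fell, where 6.12% of all genes fell, and the median log2 difference was −0.96. Polr1a and Polr1b, the largest and second largest subunits that form the catalytic centre, were both lower. Polr1a (chr6:71909053-71979435 in GRCm38.p6) stood at 7.72, 7.78 and 7.78 on null arrays 1 to 3 and at 8.74, 8.68 and 8.69 on wild type arrays. This was 1.93-fold lower (log2 difference −0.95, SE 0.10, limma adjusted p = 0.0036), with the 3 values of each group nearly equal. Polr1b stood at 6.83, 6.74 and 6.26 in null and at 7.75, 7.55 and 7.99 in wild type. The lowest null array was replicate 3, and the difference was −1.15 (SE 0.20, limma adjusted p = 0.016, rising to 0.057 if wild type replicate 3 was omitted). Taf1d, a subunit of the selectivity factor SL1 that brings the polymerase to its promoter, had values of 8.08, 7.87 and 8.25 in null and 8.93, 9.20 and 9.01 in wild type. It was 1.97-fold lower (limma adjusted p = 0.00998).

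Ddx21, a nucleolar RNA helicase that in human cells binds ribosomal DNA and snoRNAs, stood at 9.48, 9.08 and 9.28 in null and at 10.49, 10.14 and 10.16 in wild type. It fell by 0.98 (SE 0.16, limma adjusted p = 0.014, rising to 0.054 if null replicate 2 was omitted). Ncl, the abundant nucleolar RNA-binding protein nucleolin, had the smallest difference among these 6 genes, at −0.62 (11.42 ± 0.04 against 12.04 ± 0.04, SD, n = 3; limma adjusted p = 0.013, rising to 0.056 if null replicate 2 was omitted). Polr1d, a subunit shared with RNA polymerase III, did not pass. Its values were 8.14, 8.26 and 8.09 in null and 8.41, 8.81 and 9.25 in wild type (log2 difference −0.66, limma adjusted p = 0.11), and the wild type arrays were spread more widely than the null arrays. A second, dimmer row of Polr1d differed by 0.44, in the opposite direction, with values of 5.46, 5.62 and 6.16 in null and 5.31, 5.70 and 4.91 in wild type, which overlapped.

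All 6 snoRNP proteins fell, where 6.12% of all genes fell, with a median of −0.96. Nop56 and Nop58 are the paired scaffold proteins of box C/D snoRNPs, which guide methylation of ribosomal RNA. Nop58 (chr1:59684961-59711510) stood at 9.42, 8.83 and 9.37 in null and at 10.63, 10.41 and 10.50 in wild type. Its fall of 2.48-fold was the largest among the called genes (log2 difference −1.31, SE 0.18, limma adjusted p = 0.0089), and null replicate 2 was the lowest array. Nop56 stood at 9.39, 9.15 and 9.29 in null and at 10.57, 10.30 and 10.37 in wild type (2.20-fold lower, log2 difference −1.14, SE 0.13, limma adjusted p = 0.0045). For both genes the highest null array was nearly 1 log2 unit below the lowest wild type array.

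Nhp2 and Gar1 belong to box H/ACA snoRNPs, which guide pseudouridylation. Nhp2 values were 7.44, 7.49 and 7.39 in null and 8.33, 8.44 and 8.50 in wild type, a 1.98-fold lower level (limma adjusted p = 0.0039). Gar1 differed by −0.94 (SE 0.16, limma adjusted p = 0.015, rising to 0.064 if null replicate 2 was omitted), with 7.04 ± 0.06 in null and 7.98 ± 0.27 in wild type. Nolc1, the snoRNP chaperone Nopp140, stood at 8.32, 8.19 and 8.13 in null and at 9.22, 9.03 and 9.22 in wild type (1.92-fold lower, limma adjusted p = 0.0062). Rrp9, a protein specific to the U3 snoRNP that acts in early processing, was 1.73-fold lower (log2 difference −0.79, limma adjusted p = 0.015, rising to 0.053 if null replicate 2 was omitted).

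**Figure D4:**
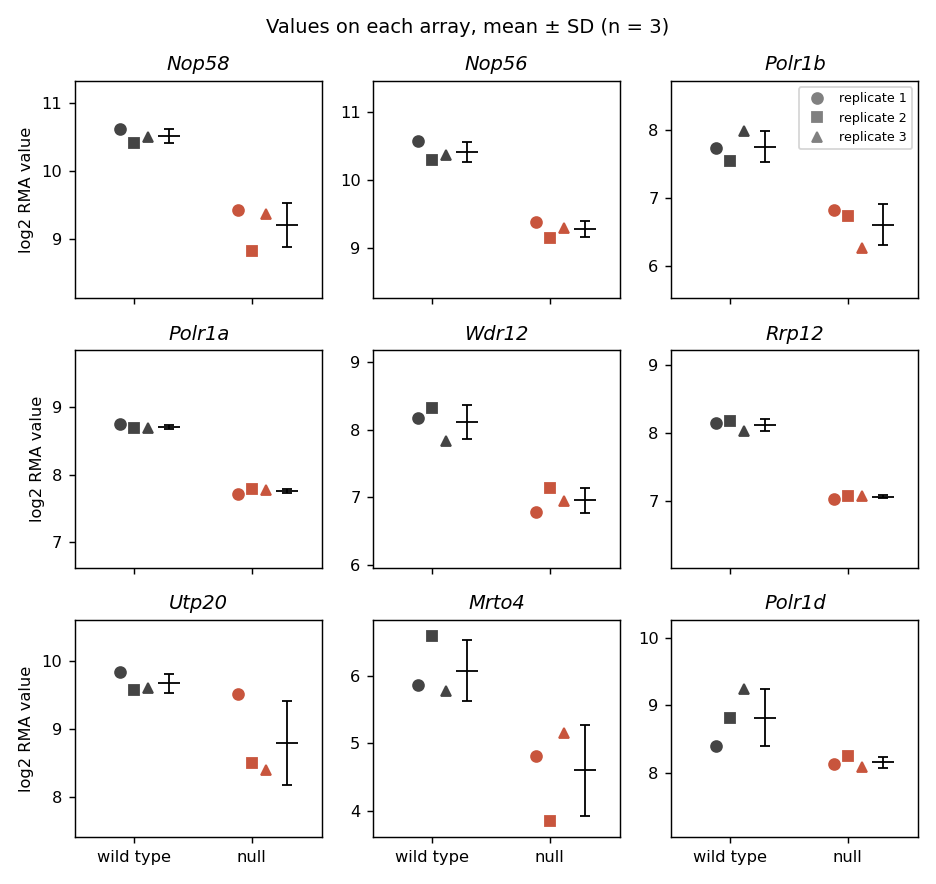
Log2 RMA values of 9 genes on each array, wild type in dark grey and null in red, with marker shape for the replicate number and the mean ± SD (n = 3) beside the points. All panels span an equal range of log2 units. The groups are apart in each panel, with wide spread for Utp20 and Mrto4 in null and for Polr1d in wild type.

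Of 15 small subunit factors, 10 fell, where 6.12% of all genes fell, and the median of the 15 was −0.71. These proteins form the small subunit processome, which assembles on the nascent precursor, or act on the later particle. Rrp12, which in yeast acts in maturation and export of both subunits, (gene at chr19:41859483-41896153) stood at 7.03, 7.07 and 7.07 in null and at 8.15, 8.18 and 8.03 in wild type. It had the largest fall of the group and the lowest adjusted p of all 41 genes (2.08-fold, log2 difference −1.06, SE 0.10, limma adjusted p = 0.0031). Heatr1, which in human cells acts both in transcription of the precursor and in its processing, stood at 7.68, 7.39 and 7.58 in null and at 8.47, 8.49 and 8.60 in wild type (1.95-fold lower, limma adjusted p = 0.0064). Utp15, a member of the same subcomplex in yeast, was 1.66-fold lower (limma adjusted p = 0.017, rising to 0.064 if null replicate 2 was omitted).

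Pwp2, Tbl3, Wdr3 and Wdr36 correspond to proteins of 1 processome subcomplex, UTP-B in yeast, and their log2 differences were −0.71, −0.84, −0.58 and −0.78. Tbl3 stood at 7.69, 7.60 and 7.93 in null and at 8.82, 8.55 and 8.38 in wild type (limma adjusted p = 0.022, rising to 0.085 if null replicate 2 was omitted). Wdr36 had 2 rows, which differed by −0.78 and −0.88, and the brighter of them, used here, was called (limma adjusted p = 0.020, rising to 0.066 if null replicate 3 was omitted). With an array omitted it was called in 1 of the 6 fits. Wdr3 was called at an adjusted p of 0.043 by limma and was called in none of the 6 fits that omit an array (at most 0.13, with null replicate 2 omitted). Pwp2 lay at 7.17, 6.89 and 7.05 in null and at 8.02, 7.81 and 7.42 in wild type, just short of the threshold (limma adjusted p = 0.054, blocked 0.037).

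Imp3, a partner of the U3 snoRNP, fell by 0.79 (limma adjusted p = 0.013, rising to 0.052 if null replicate 2 was omitted). Its partner Imp4 stood at 8.31, 8.46 and 8.09 in null and at 8.80, 8.92 and 8.53 in wild type. Replicate 3 was the lowest array in both groups, and the difference of −0.46 passed only with the block (limma adjusted p = 0.12, blocked 0.0495). Among late factors, Bysl and Ltv1 fell by 0.68 and 0.66 and the endonuclease gene Nob1 by 0.52 (limma adjusted p = 0.020, 0.033 and 0.049). With 1 array omitted these reached 0.063 (wild type replicate 2), 0.097 (null replicate 2) and 0.13 (wild type replicate 2). Bysl and Ltv1 were each called in 1 of the 6 such fits and Nob1 in none.

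Utp20, a large processome protein, stood at 9.51, 8.49 and 8.39 in null and at 9.84, 9.58 and 9.60 in wild type. Null replicate 1 lay just under the wild type arrays and the other null arrays more than 1 log2 unit under them, so the spread of the null group was wide (SD 0.62; log2 difference −0.88, limma adjusted p = 0.13, blocked 0.043). Ddx10 and Nop14 differed least among the small subunit genes and did not pass. The helicase gene Ddx10 stood at 8.18, 8.01 and 8.22 in null and at 8.35, 8.65 and 8.43 in wild type (−0.34, limma adjusted p = 0.15). Nop14 stood at 8.61, 8.40 and 8.64 in null and at 8.99, 8.84 and 8.76 in wild type (−0.31, limma adjusted p = 0.17).

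Of 14 large subunit factors, 11 fell, where 6.12% of all genes fell, and the median of the 14 was −0.72. Pes1, Bop1 and Wdr12 form the PeBoW complex, which is needed for processing of the large subunit RNA, and their differences ranged widely. Wdr12 stood at 6.79, 7.14 and 6.94 in null and at 8.18, 8.31 and 7.83 in wild type (2.22-fold lower, log2 difference −1.15, SE 0.17, limma adjusted p = 0.010). Bop1 was 1.62-fold lower (limma adjusted p = 0.012). Pes1 stood at 7.85, 7.73 and 7.53 in null and at 7.98, 7.90 and 8.06 in wild type, a difference of −0.28 that did not pass (SE 0.13, limma adjusted p = 0.23). The differences between the 3 subunits were not tested.

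Nop2 stood at 7.83, 7.73 and 7.79 in null and at 8.91, 8.73 and 8.81 in wild type (2.04-fold lower, limma adjusted p = 0.0036). Rrp1b, a nucleolar protein related to a yeast large subunit factor, stood at 7.26, 7.0 and 6.73 in null and at 8.14, 7.87 and 7.93 in wild type (1.98-fold lower, limma adjusted p = 0.016, rising to 0.064 if null replicate 2 was omitted). Nop16, Gnl3 (the nucleolar GTPase nucleostemin) and the rRNA methyltransferase gene Ftsj3 fell by 0.98, 0.93 and 0.74, with limma adjusted p of 0.0043, 0.0070 and 0.0084. Ppan, Ebna1bp2 and the helicase gene Ddx27 fell by 0.69, 0.68 and 0.65. Without null replicate 2 the adjusted p of Ebna1bp2 and Ddx27 rose to 0.074 and 0.069, and they were called in 2 and 3 of the 6 fits without 1 array. Nip7 fell by 0.58 (limma adjusted p = 0.046, blocked 0.051), and was called in no fit without 1 array (at most 0.14, with null replicate 2 omitted).

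Mrto4, a homologue of the yeast factor that holds the place of the ribosomal stalk during assembly, had the largest difference of the 41 genes and did not pass. The gene lies at chr4:139347440-139352576. It stood at 4.82, 3.86 and 5.15 in null and at 5.86, 6.59 and 5.77 in wild type (log2 difference −1.46, SE 0.38, limma adjusted p = 0.059). Mrto4 was also the dimmest of the 41 genes in both groups (group means 4.61 in null and 6.07 in wild type). Its replicates were the most widely spread of the 41 genes in both groups, with SDs of 0.67 and 0.45. Rrs1, which in yeast acts in incorporation of a small ribosomal RNA into the large subunit, stood at 6.32, 6.74 and 6.66 in null and at 6.79, 6.89 and 7.07 in wild type (−0.34, limma adjusted p = 0.23). The groups did not overlap, but null replicate 2 lay within 0.1 of wild type replicate 1.

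Other lists of ribosome biogenesis genes, outside the set of 50, had negative medians. Fewer than 50% of their genes fell except among the snoRNP factors, where 6.12% of all genes on the arrays fell. Among 8 other snoRNP factors 6 fell (median −0.64), led by the chaperone ATPase genes Ruvbl1 (−1.04) and Ruvbl2 (−0.96) and by Znhit3 (−0.78). Among 33 other small subunit factors 15 fell (median −0.47), with Dimt1, an rRNA dimethyltransferase gene, at −1.20, Rcl1 at −1.02 and Wdr46 at −0.93. Among 33 other large subunit factors 10 fell (median −0.40), with Las1l, an endonuclease subunit gene, at −1.18, the AAA ATPase gene Mdn1 at −1.10 and Rrp15 at −0.94. Positive differences were found for 5 of these 33 large subunit genes and 1 of the 33 small subunit genes, up to 0.44 for Sbds (limma adjusted p = 0.11). Of 9 other genes of the polymerase I machinery, Tcof1 (treacle) and Polr1e fell by 0.84 and 0.67, and 7 did not pass, among them Ubtf, which opens ribosomal DNA for transcription (−0.37, limma adjusted p = 0.11) and Polr2e, a subunit shared by the nuclear polymerases (−0.77, limma adjusted p = 0.077, blocked 0.016). With the block 3 polymerase I, 6 snoRNP, 14 small subunit and 12 large subunit genes of these lists fell, where 7.76% of all genes fell. No gene of these 4 lists rose with or without the block. With 1 array omitted the adjusted p of Ruvbl2, Wdr46 and Rrp15 reached 0.052, 0.054 and 0.051 (null replicate 2), and that of Znhit3 and Las1l 0.082 and 0.087 (null replicate 3). Znhit3 and Las1l were called in 1 and 2 of the 6 such fits.

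The RNA exosome trims the ends of precursor RNA. Of its 13 measured genes 6 fell (median −0.50), where 6.12% of all genes fell. The largest differences were those of Exosc8 (−1.43), Exosc2 (−1.21) and the ribonuclease gene Dis3 (−1.16). Of 79 genes for ribosomal proteins of the cytoplasm, 16 were measured by a row of their own. In this list 5 fell (Rpl4, Rpsa, Rplp0, Rps3 and Rpl8, by 1.58, 1.32, 0.64, 0.61 and 0.52) and none rose, and with the block Rpl10a and Rps18 fell too (blocked 0.034 and 0.040). Of the 5, Rpsa alone was called in every fit without 1 array, Rpl4 and Rps3 were called in 1 of the 6, and Rplp0 and Rpl8 in none. Rpl4 was a dim row at 3.06, 3.51 and 4.29 in null and 4.98, 4.90 and 5.71 in wild type.

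Of 12 genes of RNA polymerase III and its initiation factors only Polr3g fell (8.33%, near the 6.12% of all genes; median −0.17). It stood at 5.35, 5.52 and 5.07 in null and at 6.76, 7.49 and 6.87 in wild type (3.31-fold lower, log2 difference −1.73, SE 0.23, limma adjusted p = 0.0074), and its paralogue Polr3gl differed by 0.48 (limma adjusted p = 0.11). Of 7 genes of RNA polymerase II only Polr2j fell, by 0.64 (limma adjusted p = 0.042, rising to 0.12 if null replicate 3 was omitted; median of the list −0.24). With an array omitted Polr2j was called in 1 of the 6 fits. These lists are set beside the 41 genes as descriptions, and the difference between lists was not tested.

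MYC is known to drive transcription of ribosome biogenesis genes, and its network also holds genes that oppose it. Of the 11 genes of the MYC network 2 fell and 1 rose, where 6.12% of all genes fell and 5.35% rose. The median of this list was 0.09, against 0.02 over all genes. The list mixes genes of opposite action, so its median does not measure MYC activity. Myc stood at 8.69, 9.16 and 9.02 in null and at 9.84, 9.80 and 10.49 in wild type (2.12-fold lower, limma adjusted p = 0.032, rising to 0.086 if null replicate 3 was omitted). It was called in 1 of the 6 fits without 1 array. Mxd4, a gene of the MAX dimerization family that opposes MYC, stood at 8.86, 9.01 and 8.86 in null and at 7.89, 7.69 and 7.08 in wild type (2.56-fold higher, limma adjusted p = 0.013, rising to 0.059 if null replicate 2 was omitted). Mxd3 of the same family fell by 0.83 (limma adjusted p = 0.019, rising to 0.068 if null replicate 3 was omitted) and was called in 2 of the 6 fits without 1 array. Among 17 genes of the MCM helicase and origin licensing, which mark cells preparing to replicate DNA, 14 fell and the median was −1.81, led by Cdc6, Mcm3 and Mcm5 (−2.43, −2.19 and −2.19). These licensing genes moved with the 41 genes, and their part in the difference of the 41 was not tested.

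**Figure D5:**
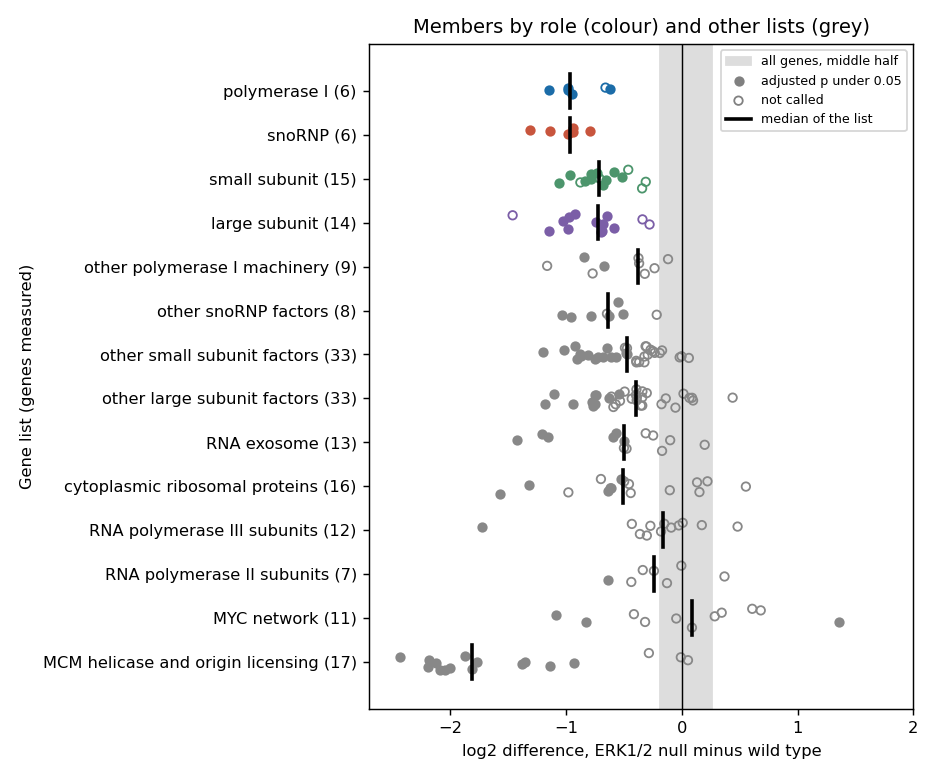
Log2 difference (null minus wild type) of each gene in the 4 role groups and in 10 other lists, with the number of measured genes in brackets. Filled points have a limma adjusted p under 0.05, black bars are list medians, and the grey band is the middle 50% of all genes (−0.18 to 0.26). All points of the role groups lie left of this band.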

How the data were processed

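Expression was analysed from the deposited table of 6 arrays, whose log2 values the authors made with RMA (robust multi-array average), per the submitters' processing notes (no version is named). Their range of 0.739 to 14.3 is that of log2 data. RMA normalizes between arrays and compresses differences of dim rows. Array values have no depth, and the number of arrays limits the precision.

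Of 16775 rows, 14996 named 1 gene in the platform annotation, and 14941 of these took their symbol from the gene table of GRCm38.p6. The brightest row stood for a gene, giving 14860 genes, and no member lay in the dimmest 33.3%. Groups followed the titles. Differences were tested with limma 3.58.1 (lmFit, eBayes) in R 4.3.3 on all genes, 2-sided, with Benjamini-Hochberg adjustment; lists were summarised with Python 3.11.15 and pandas 2.3.3. The procedure was tested on simulated arrays with independent noise. These held no replicate effect, so that test does not cover the shared deviation of arrays of equal number. The members, lists, roles and alternatives were chosen with earlier results of these data known, so no list was given a test or an adjustment of its own.

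Values on every array were given for the 4 members with the largest difference in each role and for each member not called. Of each pathway list, up to 3 called genes were named, or all where 5 or fewer were called, with any called against the list's median. Deviations from group means correlated between arrays of equal number across all genes (r = 0.57, 0.35 and 0.45 for numbers 1, 2 and 3), so the numbers were taken to pair the arrays; over the 41 members alone r was 0.31, −0.22 and −0.32. Blocked values stand beside the calls of named genes that they change. An adjusted p said to rise or reach a value with an array omitted is the highest of the 6 such fits. The call can be lost in other such fits too. Ubtf, Polr2e, Polr3gl, Sbds, Rpl10a, Rps18 and the markers were named outside this rule, after their values were seen. Twistnb, Cd3eap and Znrd1 are the table's names of polymerase I genes now called Polr1f, Polr1g and Polr1h.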

Additional observations from a re-analysis of the deposited data

How the results depend on the processing

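With 3 arrays per group, an exact permutation test of a single gene could not go below p = 0.1, and single calls near the threshold rested on the model's shared spread. The 41 members had negative differences under each alternative run, except Polr1d at 0.44 when its dimmest row stood for it. The shares of all genes called lower stand in brackets. The count of 32 called members (6.12%) was 34 after quantile normalization (7.13%), after subtraction of array medians (7.73%), with the filter on low values (10.1% of 9906 genes) and with the replicate block (7.76%). It was 33 with array weights (6.36%). It was 32 with an intensity trend (5.98%), with the mean of a gene's rows (6.11%) and with its dimmest row (6.06%). The median of −0.79 moved to −0.87 after subtraction of array medians, which shifted the median of all genes from 0.02 to −0.06.

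Leaving out 1 array gave 15 to 28 called members, where 3.09% to 4.89% of all genes fell, and medians from −0.84 to −0.74. By role these were 2 to 6 of polymerase I, 4 to 6 snoRNP, 2 to 7 small subunit and 7 to 10 large subunit members. Without replicate 1 of both groups 17 were called (3.74% of all genes), with 5 small subunit and 4 large subunit members. At an adjusted p under 0.01 there were 12 (2.44% of all genes), namely 2 of polymerase I, 2 small subunit, 4 large subunit and 4 snoRNP members. The replicate block changed the calls of Utp20, Pwp2, Imp4 and Nip7 and of no other member.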
